A study of Mus musculus with 29 samples.

Results

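The 10 genes described here build and load mouse MHC class I molecules. They are the heavy chains H2-K1 and H2-D1, the light chain B2m, the peptide transporter subunits Tap1 and Tap2, the loading factor Tapbp (tapasin), the immunoproteasome subunits Psmb8, Psmb9 and Psmb10, and the transactivator Nlrc5. They were chosen by name from 21911 protein-coding genes of the GENCODE vM21 annotation of GRCm38, and every deposited peak that overlapped a gene body extended by 20 kb on each side was assigned to that gene. Across the 25 peak lists, 439 of 1008691 distinct peak regions (each chromosome, start and end counted once) fell in these windows.

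Almost all cells show peptides from their own proteins on class I molecules. Peptides cut by the proteasome are pumped into the endoplasmic reticulum by the Tap1-Tap2 transporter, tapasin helps to load them onto a heavy chain paired with beta-2 microglobulin, and the immunoproteasome subunits replace the constitutive ones after interferon. Nlrc5 is a transactivator of class I promoters, and IRF8 is an interferon regulatory factor of myeloid cells that can bind DNA with the ETS factor PU.1.

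The study used CUT&RUN, in which an antibody directs a nuclease to cut out the DNA near its target, in sorted cells of female mice. IRF8 was mapped with a GFP antibody in mice of the strain IRF8-EGFP, as 4 libraries of microglia at postnatal day 9 (P9, 4 of 7 made), 3 at P14, 3 of adult microglia and 3 of peritoneal macrophages. PU.1, H3K27ac (a mark of active promoters and enhancers) and H3K4me1 (a mark of enhancers and promoter flanks) were mapped in adult microglia of WT and IRF8KO mice, 2 libraries for each target and genotype (for IRF8KO H3K27ac, 2 of 3 made). The protocol gives 3 months as the age for WT and IRF8KO brains and states no age for the IRF8-EGFP adult microglia or peritoneal macrophages. Brain cells were fixed with formaldehyde before sorting where a transcription factor was mapped, and no further treatment is named. The labels name neither the strain background, which matters at the polymorphic class I loci, nor the design of the IRF8KO allele or of the EGFP fusion, and they do not say whether replicates were separate animals.

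The IRF8 lists grew from 1168 to 2068 regions at P9 to 17048 to 29667 in adult microglia, with 7931 to 19243 at P14 and 9788 to 23163 in peritoneal macrophages, while fragments ranged from 7250496 to 24705885 per library without following that order. Each stage or tissue was called against its own IgG library, so stage, tissue and control cannot be told apart. Peritoneal libraries carry a source label that says microglia, and the title was followed. At the starts of marker genes, P2ry12 and Siglech had an IRF8 peak in 3 of 3 adult microglia libraries, Sall1 in 2 and Tmem119 in 1, whereas in peritoneal macrophages P2ry12 had one in 2 of 3 and the other microglial markers in 0. Gata6 and Icam2, markers of peritoneal macrophages, had an IRF8 peak in 2 of 3 peritoneal libraries and in 1 and 0 of 3 adult microglia libraries. Lyve1, another peritoneal marker, separated the cells less, with a start peak in 1 of 3 peritoneal and 0 of 3 adult microglia libraries. Fewer cells with a bound site and less binding per cell cannot be told apart in such bulk lists. The IRF8KO H3K27ac replicate 2 was the shallowest of its target, with 8572250 fragments and 31524 regions against 88400 in replicate 1, and no expression was measured here that could check the knockout.

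The sequences that carry the findings come first, all from GRCm38. IRF8 regions lay at the H2-K1 start, at the H2-D1 start and 21186 bases downstream of the H2-K1 start, where GENCODE places the start of H2-K2, an unprocessed class I pseudogene on the same strand. These are copies of one another. Over 400 bases around the H2-K1 promoter, the distal copy was 81.4% identical (320 of 393 aligned positions, longest identical run 32 bases) and the H2-D1 copy 81.5% identical (327 of 401, longest run 47 bases). Reads were 35 bases at each end and neither labels nor headers say how reads with several matches were handled, so reads could be shared among copies. All 3 hold the letters GGGGANTCCCC (its own reverse complement, the kB-like core of class I promoters), here in capitals within 30 bases read in the sense of the gene.
H2-K1 start, chr17:34000438-34000467, minus strand: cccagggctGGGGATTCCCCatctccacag
H2-K2 start (downstream of H2-K1), chr17:33978962-33978991, minus strand: cccagggctGGGGATTCCCCatctggtcag
H2-D1 start, chr17:35262913-35262942, plus strand: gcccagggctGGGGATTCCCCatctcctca

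In a window of 400 bases centred on the median adult summit, the kB-like letters occurred in 3 of 20 adult IRF8 consensus regions in the members' windows, which are the copies above, and in 13 of all 16934 (0.0768%). They lay -119 (H2-K1), -118 (H2-K2) and 94 bases (H2-D1) from that summit. Among RefSeq promoters (GRCm38.p6, 300 bases each) they occurred at 2 of the 8 members with an entry and in 16 of all 32851 (0.0487%).

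The letters GAAANNGAAA, the core of an interferon-stimulated response element (ISRE), were searched on both strands, as were GGAANNGAAA, an ETS-IRF composite element. An ISRE-like match lay within 200 bases of the adult summit in 4 of 20 regions, against 8.33% of all adult IRF8 regions, and a composite match in 2 of 20, against 14.4%. The ISRE-like matches were at the starts of B2m, of Psmb9 and Tap1, of Psmb8 and of Psmb10, the last with 2 matches. From the median adult summit they lay 124 (B2m), 131 (Psmb9 and Tap1), 173 (Psmb8), and 120 and 177 bases (Psmb10). The composite matches lay -139 (upstream of Tap1) and 179 bases (Psmb8) from it, so no match was at the summit. ISRE-like matches outside B2m are printed with 10 bases on each side, the match in capitals, in the orientation that reads GAAA.
Psmb9 and Tap1 start, chr17:34187688-34187717, minus strand: agaggaagaaGAAACCGAAAgccgacctcg
Psmb8 start, chr17:34198335-34198364, minus strand: acaaggaagtGAAAGCGAAAgccacagtac
Psmb10 start, chr8:105938109-105938138, minus strand: gggtgggggtGAAAGCGAAAgtaggaagcg
Psmb10 start, chr8:105938166-105938195, minus strand: cagcaaagacGAAAGTGAAAgagaagatgc

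At Psmb8 a composite match overlapped the ISRE-like one on the same strand. Of the 8 members with a RefSeq promoter entry, B2m was the 1 with an ISRE-like match in it (3.44% of all promoters), and 0 had a composite match (2.72%). Tap2 and Nlrc5 had no entry. Stretches of 300 bases, with the match in capitals, show 3 IRF8 regions whose matches lie outside annotated UTRs. They are the B2m promoter (ISRE-like), the region upstream of Tap1 beyond the end of Psmb9 (composite), and a region within the Nlrc5 gene that was a consensus region in peritoneal macrophages and not in the microglial groups (overlapping ISRE-like matches). A match describes the letters and is not a measured binding site.
B2m promoter, chr2:122147318-122147617, plus strand: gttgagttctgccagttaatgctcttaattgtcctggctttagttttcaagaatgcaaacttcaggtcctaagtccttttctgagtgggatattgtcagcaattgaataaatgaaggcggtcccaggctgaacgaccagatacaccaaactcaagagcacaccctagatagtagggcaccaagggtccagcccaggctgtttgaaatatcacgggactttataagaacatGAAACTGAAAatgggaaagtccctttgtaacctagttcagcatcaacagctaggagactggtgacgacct
Tap1 upstream, chr17:34180673-34180972, minus strand: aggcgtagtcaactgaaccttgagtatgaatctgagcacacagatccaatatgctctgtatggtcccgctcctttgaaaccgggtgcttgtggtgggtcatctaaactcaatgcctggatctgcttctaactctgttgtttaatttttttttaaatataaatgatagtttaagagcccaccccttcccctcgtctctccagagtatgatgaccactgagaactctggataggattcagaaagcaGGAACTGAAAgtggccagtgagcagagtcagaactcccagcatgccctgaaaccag
Within Nlrc5, chr8:94485260-94485559, minus strand: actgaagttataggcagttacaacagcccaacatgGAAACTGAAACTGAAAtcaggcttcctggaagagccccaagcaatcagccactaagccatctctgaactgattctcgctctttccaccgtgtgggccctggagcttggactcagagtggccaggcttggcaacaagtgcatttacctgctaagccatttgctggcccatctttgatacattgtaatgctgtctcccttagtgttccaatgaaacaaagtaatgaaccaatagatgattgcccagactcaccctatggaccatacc

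IRF8 peaks lay at the starts of nearly all members from P14 on. A consensus region, meaning merged peaks from at least 2 libraries of a group, lay within 1 kb of a transcription start of 2 members at P9 (H2-D1 and Psmb8), of 9 at P14, of 9 in adult microglia and of 8 in peritoneal macrophages. Over all protein-coding genes the shares were 1.19%, 10.3%, 24.6% and 16.2%. Psmb9 and Tap1 share 1 region between their divergent starts, so the 9 members of P14 and adult microglia had 8 regions. Tap2 was the member without one in each of these groups: a peak lay at its start in 0 of 4 libraries at P9 and in 1 of 3 in each other group.

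Counting the whole window, 6 of 10 members had a consensus region at P9 (7% of all genes) and 10 of 10 at P14 (32%), in adult microglia (50.6%) and in peritoneal macrophages (39.9%). Tap1, Tap2, Psmb8 and Psmb9 lie side by side and share the regions of their overlapping windows, so these counts are not independent. The P9 count fell to 1 without P9 replicate 1 or without replicate 3, and the peritoneal count to 6 without replicate 1 or without replicate 2. The members were picked with earlier results in view, so the counts describe these genes without a test.

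**Figure D1:**
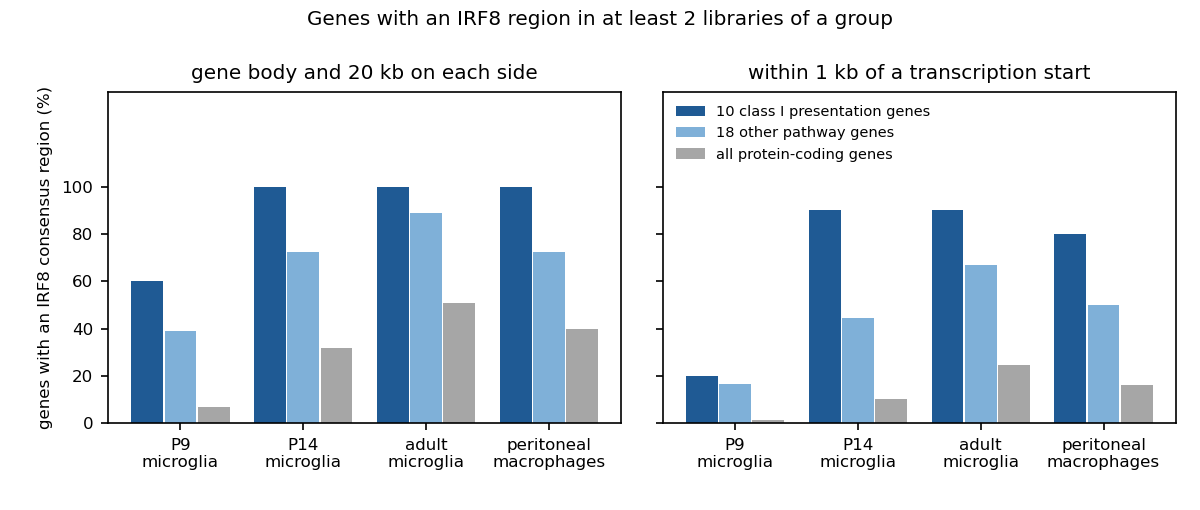
Percentage of genes (y axis) with an IRF8 consensus region in each of 4 groups (x axis), for the 10 class I presentation genes, 18 other pathway genes and all 21911 protein-coding genes; bars are single counts without replicate error. In the right panel 9 of 10 members have a region at the start in P14 and adult microglia, where 10.3% and 24.6% of all genes do.

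Member peaks were fewest at P9, where the lists were shortest. The windows held 4, 0, 4 and 2 peaks in the P9 libraries, 8, 18 and 12 at P14, 19, 26 and 19 in adult microglia, and 20, 18 and 7 in peritoneal macrophages. The P9 libraries lay below every later microglial library. Per 1000 listed regions, however, the P9 libraries spanned 0 to 2.93 member peaks and the adult ones 0.847 to 1.11, so the share of the list at these genes was not lower at P9 in all libraries. Consensus regions numbered 3, 11, 20 and 13, which were 0.218%, 0.135%, 0.118% and 0.108% of all consensus regions of these groups.

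Whether single regions were present more often after P9 was tested with Fisher's exact test (two-sided) on presence in 4 P9 against 6 later microglial libraries, adjusted by Benjamini-Hochberg over 20215 regions. Of these 0 were called (0%), the smallest p such groups allow being 0.00476 and the smallest adjusted p 0.0646. Unadjusted, 4447 regions (22.0%) and 6 of the 21 in the members' windows had a p of 0.05 or less. The B2m start, with 0 of 4 P9 and 6 of 6 later libraries, reached the smallest p (exact p = 0.00476, adjusted p = 0.0646). The H2-K1 start and the Psmb9 and Tap1 start, each with 1 of 4 against 6 of 6, had an exact p of 0.0333 (adjusted p = 0.201). The Nlrc5 start, the Psmb10 start and the Ddx39b start upstream of H2-D1, each with 0 of 4 against 5 of 6, had an exact p of 0.0476 (adjusted p = 0.201).

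**Figure D2:**
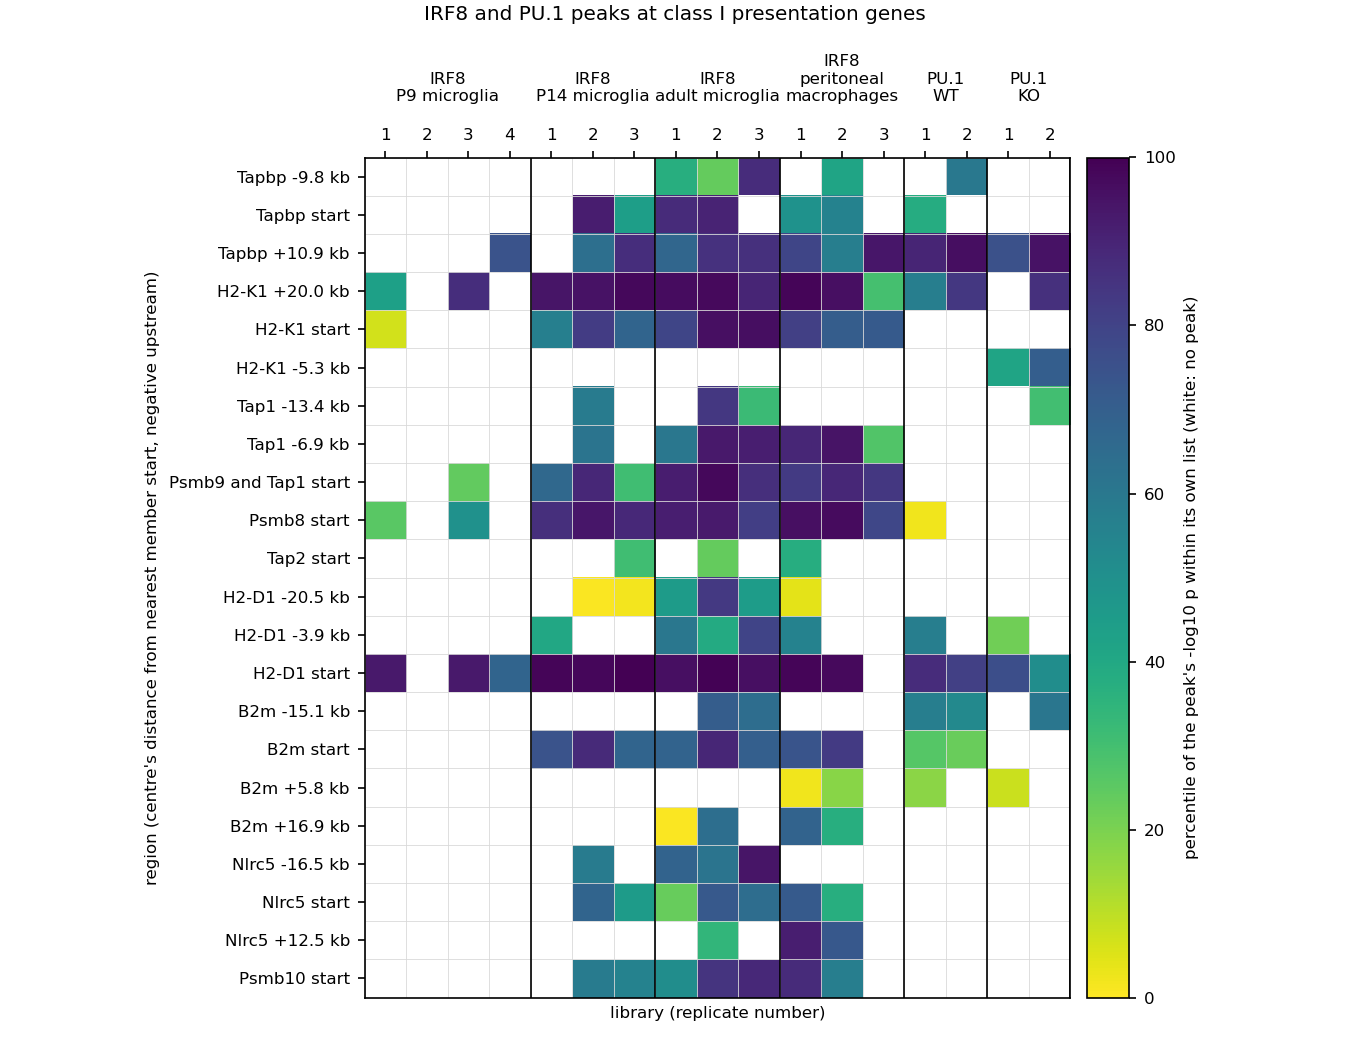
Rows are regions near the members, named by the nearest member start and the distance of the region's centre, and columns are the 17 IRF8 and PU.1 libraries; colour gives the percentile of the peak's −log10 p within its own list, and white means no peak. The H2-D1 start is coloured in every microglial library other than P9 replicate 2, and that library is white throughout.

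Among the heavy chains, the H2-D1 start (chr17:35262402-35263372 in adult microglia, over the first exon and 5′ UTR) held an IRF8 peak in 3 P9 libraries and outranked the H2-K1 start in every list that held both, other than adult replicate 3. The authors' fold enrichment was 9.92, 9.36 and 6 in P9 replicates 1, 3 and 4, with no peak in replicate 2, then 17.1, 17.7 and 20.2 at P14 and 18.2, 24.9 and 11.2 in adult microglia. Fold values come from separately called lists and are not compared between groups, but within each P14 list the peak stood at the 98.3rd to 99.7th percentile of −log10 p. Peritoneal replicates 1 and 2 had it at the 98.8th and 97.4th percentile, and replicate 3 had no peak. The H2-K1 start (chr17:33999996-34000863, first exon and 5′ UTR) had a peak in 1 P9 library, replicate 1, at the 6.77th percentile, and in every P14, adult and peritoneal library, at the 79.1st, 96th and 96.2nd percentile in adult microglia.

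The H2-K2 copy downstream of H2-K1 (chr17:33978585-33979557, intergenic with respect to protein-coding genes) was the third P9 consensus region, with peaks in P9 replicates 1 and 3 and in all later and peritoneal libraries. In adult microglia it stood at the 96.6th, 97.3rd and 89.8th percentile. An adjoining region (chr17:33981047-33981969) was an adult consensus region as well, with peaks in replicates 1 and 2 at the 54.5th and 76.6th percentile. Around H2-D1, adult microglia had 2 further regions in 3 of 3 libraries. One was intergenic, just upstream (chr17:35258474-35259569), and one overlapped the start of the neighbouring gene Ddx39b (chr17:35241085-35242901). Peritoneal replicate 1 was the only peritoneal library with a peak at either.

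B2m, the light chain of class I molecules, had IRF8 at its start in every microglial library after P9 (chr2:122146097-122149218 in adult microglia, spanning the promoter, first exon and part of the first intron). None of the 4 P9 libraries had a peak there. Fold enrichment was 7.5, 9.76 and 5.56 at P14, 8.76, 11.2 and 6.05 in adult microglia, and 6.21 and 4.7 in peritoneal replicates 1 and 2, with none in replicate 3. Other B2m regions were a Patl2 intron upstream (chr2:122132233-122132962, adult replicates 2 and 3, no peritoneal library) and a region within Trim69 and Patl2 introns (chr2:122163673-122164664, adult replicates 1 and 2 and peritoneal replicates 1 and 2). A Patl2 intron beyond the 3′ end of B2m (chr2:122153681-122154426) was a consensus region in peritoneal macrophages, from weak peaks at the 2.24th and 17.8th percentile, and had no IRF8 peak in any microglial library.

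The transporter and immunoproteasome genes of chromosome 17 form 1 cluster. The start shared by Psmb9, a catalytic subunit, and Tap1 (chr17:34186609-34187787 in adult microglia, over first exons and UTRs of both) had an IRF8 peak in P9 replicate 3 and in every later and peritoneal library, at the 92nd, 97.8th and 86.5th percentile in adult microglia. The start of Psmb8, another catalytic subunit (chr17:34197455-34198763), had peaks in P9 replicates 1 and 3, with folds of 4.44 and 5.35, and in every later and peritoneal library. A region upstream of Tap1 (chr17:34180358-34181190, intergenic beyond the Psmb9 3′ end) was present in every adult and peritoneal library, in P14 replicate 2, and in no P9 library. A region farther upstream (chr17:34173270-34175057) was found in adult replicates 2 and 3 and in P14 replicate 2. At Tap2 (chr17:34204010-34204700, exonic with UTR) single peaks in P14 replicate 3, adult replicate 2 and peritoneal replicate 1 made no consensus region.

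**Figure D3:**
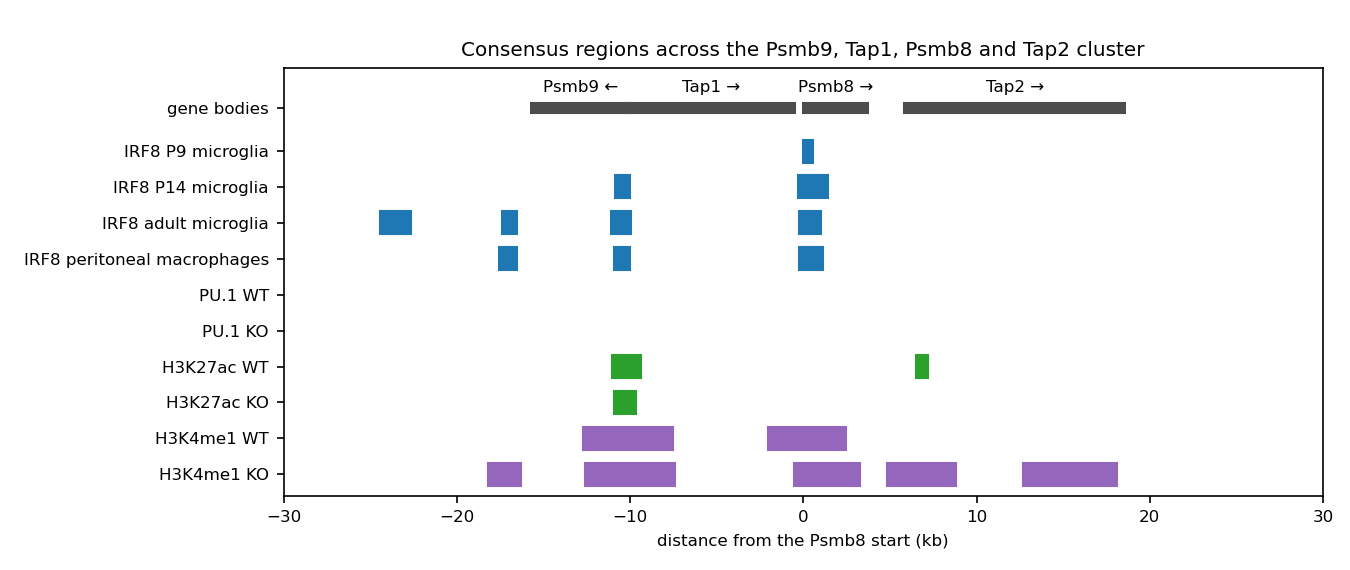
Consensus regions (bars, to scale) of each group along the cluster, with the x axis in kb from the Psmb8 start and gene bodies on top (arrows give the direction of transcription). IRF8 bars repeat at the Psmb8 start in 4 groups and between Psmb9 and Tap1 in 3, and H3K27ac at Tap2 is drawn in WT and not in IRF8KO.

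Tapbp, Psmb10 and Nlrc5 had no IRF8 peak at their starts at P9 and had one in fewer of the later libraries than the genes above other than Tap2. The Tapbp start (chr17:33919182-33921029, over exons and UTRs of Tapbp and Zbtb22) had peaks in P14 replicates 2 and 3, adult replicates 1 and 2 and peritoneal replicates 1 and 2. The peritoneal peaks did not overlap each other and so made no consensus region. Psmb10, the third catalytic subunit (start region chr8:105936565-105938581), and Nlrc5 (start region chr8:94433154-94434613, promoter and first exon) both had peaks in every adult library, in replicates 2 and 3 at P14, in peritoneal replicates 1 and 2, and in none of the 4 P9 libraries. P14 replicate 1 and peritoneal replicate 3 lacked the Tapbp, Psmb10 and Nlrc5 regions alike. They were among the shorter lists of their groups, with 7959 and 9788 regions, although P14 replicate 3, with 7931, had all 3. Titles put adult and peritoneal replicates 1 and 2 in batch 1 and replicate 3 in batch 2. Peritoneal replicate 3, which also lacked the H2-D1 and B2m start peaks, was thus the 1 peritoneal library of batch 2, and batch, list length and replicate cannot be told apart there. The batch 2 adult library had a start peak at all of these genes other than Tapbp.

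Outside its start, Nlrc5 had regions listed in microglia or in macrophages alone as consensus, a difference that was not tested. An upstream region (chr8:94417206-94418482, intergenic) was present in every adult library, in P14 replicate 2, and in no peritoneal library. The region within the gene printed above (chr8:94484356-94486206) was present in peritoneal replicates 1 and 2, at the 91.4th and 72.4th percentile, and in adult replicate 2 at the 34.2nd. Around Tapbp, 3 adult regions lay at or near neighbouring genes: the Daxx start (chr17:33909033-33910110), and the Rgl2 start and body (chr17:33929173-33929991 and chr17:33930818-33931915). Rgl2 also had consensus regions at P14 (chr17:33930684-33931842) and in peritoneal macrophages (chr17:33929913-33931653), the latter being the Tapbp window's peritoneal region. Of the 13 peritoneal regions 11 overlapped an adult microglial one, against 56.3% of all peritoneal IRF8 regions, and of the 20 adult regions 13 overlapped a peritoneal one, against 39.5%.

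H3K27ac listed in both WT libraries covered a minority of the members' IRF8 regions. Of the 20 adult IRF8 regions in the windows, 7 overlapped a WT H3K27ac consensus region, against 81.8% of all adult IRF8 regions, and 16 overlapped WT H3K4me1, against 91.3%. PU.1 overlapped 6 of 20, against 27% (4580 of 16935). At the H2-K1, Psmb8, Psmb10 and Tapbp starts, H3K27ac was listed in 1 of 2 WT libraries and so was not in the consensus. The same held at the Daxx and Ddx39b starts, the H2-K2 copy and its adjoining region. It also held at the regions upstream of H2-D1 and of Nlrc5. The Rgl2 start and both regions upstream of Tap1 had the mark in 0 of 2. Mappability of these regions was not tested.

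**Figure D4:**
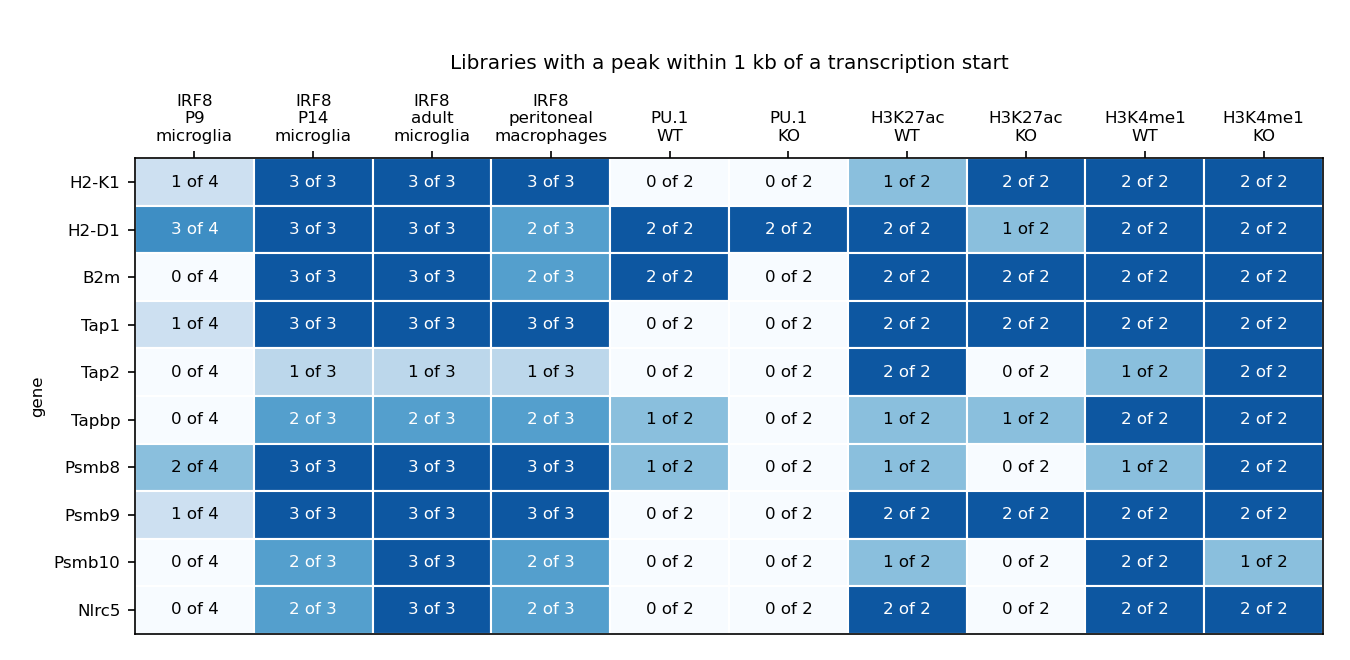
Each cell gives the number of libraries of a group (columns) with a peak within 1 kb of a transcription start of the gene (rows), darker for a larger share. IRF8 in adult microglia fills 3 of 3 for 8 genes, PU.1 is listed in both WT libraries at H2-D1 and B2m, and H3K27ac at Tap2 and Nlrc5 is listed in 2 of 2 WT and 0 of 2 KO libraries.

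Loss of IRF8 was followed in WT against IRF8KO microglia, where a consensus region of one genotype was called lost or gained if no library of the other genotype had a peak there. With 2 libraries against 2 the smallest exact p is 0.33, so no test was made. For PU.1, 1 of 6 WT regions was lost, against 25.1% of all WT PU.1 regions, and 1 of 3 IRF8KO regions was gained, against 16.5%. For H3K27ac, 4 of 13 were lost, against 34%, and 0 of 7 gained, against 10.9%. For H3K4me1, 0 of 20 were lost, against 13%, and 7 of 31 gained, against 23.8%. These counts depended on single libraries. Leaving out 1 library gave up to 7 lost PU.1 regions (without WT replicate 2) and 3 gained (without IRF8KO replicate 1), 15 lost H3K27ac regions (without WT replicate 1) and 13 gained (without the shallow IRF8KO replicate 2), and 3 lost H3K4me1 regions (without WT replicate 1 or IRF8KO replicate 2) and 26 gained (without IRF8KO replicate 1).

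The lost PU.1 region was at B2m (chr2:122146908-122148918). Its folds in WT were 4.54 and 3.79, low in their lists at the 26.2nd and 22.8th percentile, and both IRF8KO libraries had no peak. The PU.1 summits, at bases 122148757 and 122148593, lay inside the gene, whereas the highest adult IRF8 summits lay between 122147379 and 122147670, at or before the annotated start at 122147686. PU.1 at H2-D1 was kept, with folds of 10.1 and 6.9 in WT and 6.43 and 4.37 in IRF8KO, as was PU.1 in the Rgl2 body near Tapbp. The H2-K2 copy, the B2m upstream region and the Rgl2 start were kept in IRF8KO replicate 2 alone. The gained PU.1 region lay upstream of H2-K1 (chr17:34005452-34005796), where no IRF8 library had a peak and both WT libraries had H3K27ac. Of all gained PU.1 regions, 39.4% overlapped an adult IRF8 consensus region. PU.1 replicate 2 of each genotype was called against another IgG library and at a looser q (0.05 against 0.01).

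H3K27ac was lost at Nlrc5 and Tap2, within B2m and beyond its 3′ end. The Nlrc5 promoter region (chr8:94432554-94434353) had folds of 5.55 and 5.89 in WT, at the 70.3rd and 69.5th percentile, and overlapped an adult IRF8 region. It was the 1 of the 4 lost regions to do so, where 21.7% of all lost H3K27ac regions did. The Tap2 region (chr17:34204234-34204894) was weak in WT, at the 7.59th and 34.5th percentile. The B2m-window regions lay over B2m exons (chr2:122150150-122152203) and in a Patl2 intron downstream of the gene (chr2:122158215-122159010), both at the 38.3rd percentile in WT replicate 1 and at the 53.3rd and 46th in replicate 2. With peaks limited to a −log10 p of 10 or more, the Nlrc5 region, at 10.4 and 11.0 in WT, stayed in the WT set and was called lost. The Tap2 region and both B2m regions were below that limit in WT and could not be called.

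The starts of B2m, Psmb9 and Tap1 kept the mark in both IRF8KO libraries. At the B2m start, H3K27ac folds were 10.6 and 22.1 in WT and 9.78 and 5.89 in IRF8KO, and at the Psmb9 and Tap1 start 6.92 and 4.04 in WT and 5.65 and 3.48 in IRF8KO. H2-D1 kept it in IRF8KO replicate 1, and H2-K1 had it in 1 of 2 WT and 2 of 2 IRF8KO libraries. In all, 4 of 13 WT regions, H2-D1 included, were present in IRF8KO replicate 1 and not in the shallow replicate 2. Over all WT H3K27ac regions, 42.2% were present in 1 of 2 IRF8KO libraries. Psmb8 and Psmb10 had H3K27ac at the start in 1 of 2 WT and 0 of 2 IRF8KO libraries, and so are not among the regions called.

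The 7 gained H3K4me1 regions lay away from member starts and overlapped no adult IRF8 consensus region, and of all gained H3K4me1 regions 0.576% overlapped one. They were in the Nlrc5 gene (chr8:94498843-94502053 and chr8:94507484-94510256), in Slc12a4 beyond Psmb10 (chr8:105957819-105960631), upstream of Tapbp near Platr17 (chr17:33899578-33904612), upstream of H2-K1 at the gained PU.1 region (chr17:34005292-34006599), in H2-DMb1 on the Psmb9 side (chr17:34159901-34162237) and over the last exon of H2-D1 and beyond (chr17:35267095-35272337). IRF8KO H3K4me1 replicate 2 listed the most regions of its target, 189351 against 104818 to 129859 in the other 3 libraries. Its part in the gains was not tested.

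Among 18 other genes of the pathway, consensus IRF8 regions lay at the start of 3 at P9, 8 at P14, 12 in adult microglia and 9 in peritoneal macrophages. Over all protein-coding genes the shares were 1.19%, 10.3%, 24.6% and 16.2%. The adult ones included the class I heavy chains H2-Q4, H2-Q7, H2-T23 and H2-M3, the proteasome activator Psme2, the tapasin relative Tapbpl, the trimming peptidase Erap1, the chaperone Calr and the regulators Irf2, Rfx5 and Rfxap. Erap1, H2-T23 and Rfxap had a start peak in 2 of 3 adult libraries, and the others named here in 3 of 3. Psme1 had one in 2 of 3 without a consensus region at its start. Irf1, an interferon-induced activator of class I genes, had no start peak in any IRF8 library, but its window held 1 consensus region at P9 and 2 in each other group. At P9, H2-Q7 and Psme2 had a peak in 3 of 4 libraries and H2-Q4 in 2. H2-Q4 and H2-Q7 are relatives of H2-K1 and H2-D1 and share the limit on read placement.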

How the data were processed

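CUT&RUN peak lists from 25 libraries were used, and the 4 IgG libraries served only as the authors' controls. Per the submitters' processing notes, bcl2fastq, Trim Galore, Bowtie2, deepTools and MACS2 were used with the build mm10. Neither labels nor headers state the alignment settings. Per the file headers, MACS 2.2.7.1 (IRF8, PU.1) or 2.2.6 (histone marks) called each library against an IgG control with duplicates kept. The q cutoff was 0.01, or 0.05 for PU.1 replicate 2 of each genotype, and H3K4me1 was called as broad regions at p 0.01. The deposited values per peak are pileup signal, fold enrichment (a ratio over the control), and −log10 p and −log10 q, all the authors' own. They were used only to describe or rank peaks within a list, as a percentile of −log10 p.

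Peaks with the same chromosome, start and end were counted once. Within a group, overlapping peaks (at least 1 base) were merged, and merged regions with peaks of at least 2 libraries were the consensus. Regions were assigned to a member when they overlapped its gene body (GENCODE vM21) extended by 20 kb, and to a start within 1 kb. A region was lost or gained when no library of the other genotype overlapped it. Presence at P9 and later was compared with Fisher's exact test, with Benjamini-Hochberg adjustment over all regions. The test was also run on simulated data. Planted regions there were in every later and no P9 library, which fixed their p in advance. Unchanged regions had the same rate in all libraries, unlike the real lists, so the simulation does not cover the shorter P9 lists. Consensus IRF8 regions in the windows are named once per place, mostly with their adult bounds, and all lost or gained regions are named. Sequences came from the NCBI RefSeq genome of GRCm38, and promoters from RefSeq (GRCm38.p6). The members, gene lists and motifs were chosen with earlier results of these data known. Python 3.11.15, pandas 2.3.3, scipy 1.17.1, statsmodels 0.14.6, pysam 0.24.0 and biopython 1.88 were used. Peak lists give no depth per site; libraries held 7250496 to 24705885 fragments, and a missing peak means only that none was called. The values of 1 pathway gene are not reported here.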

Additional observations from a re-analysis of the deposited data

How the results depend on the processing

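Of 88 alternative values for 11 results, 52 stayed within 1.5 times and 36 moved, which compares counts and not which regions were counted. For lost H3K27ac, a −log10 p of at least 10 gave 3 regions, of which 1 (Nlrc5) was among the 4. The others of the 4 had WT peaks below that limit and could not be called. At P9, 6 members had an IRF8 consensus region, against 1 when peaks needed a −log10 p of 10 or more, 3 for windows of 5 kb, 0 when every library was required, and 1 to 6 leaving out a library in turn (1 without replicate 1 or replicate 3). The count was 7 to 10 at P14 and 10 to 10 in adult microglia leaving out a library. In peritoneal macrophages it was 10, against 6 when every library was required and 6 to 10 leaving out a library (6 without replicate 1 or replicate 2). Requiring a −log10 p of at least 10 gave 0 lost and 0 gained PU.1 regions, and windows of 5 kb gave 0 gained PU.1 and 4 gained H3K4me1 regions. The lost and the gained PU.1 region were below that limit in their own genotype and could not be called under it. Counting regions absent from the other genotype's consensus gave 4 lost PU.1, 8 lost and 2 gained H3K27ac, and 2 lost and 13 gained H3K4me1 regions. Requiring an overlap of 50% of the shorter region gave 1 lost H3K4me1 region. Leaving out a library in turn, which leaves 1 library in a group of 2, gave 1 to 7 lost PU.1 (7 without WT replicate 2, 4 without IRF8KO replicate 2, 3 without WT replicate 1) and 1 to 3 gained PU.1 (3 without IRF8KO replicate 1, 2 without replicate 2). It gave 4 to 15 lost H3K27ac (15 without WT replicate 1, 8 without WT replicate 2 or IRF8KO replicate 1) and 0 to 13 gained H3K27ac (13 without the shallow IRF8KO replicate 2, 2 without WT replicate 1, 1 without IRF8KO replicate 1). It gave 1 to 3 lost H3K4me1 (3 without WT replicate 1 or IRF8KO replicate 2, 1 without either other library) and 9 to 26 gained H3K4me1 (26 without IRF8KO replicate 1, 16 without IRF8KO replicate 2, 11 without WT replicate 1). The cause of these moves was not tested, other than the smaller number of libraries. A −log10 p of at least 10 left no H3K4me1 region and could not be applied. The stage test called 0 member regions under the alternatives run (0 to 0 leaving out a library; smallest adjusted p by Fisher's exact test 0.0626 to 0.155), but these groups are so small that 0 calls say little about stability.

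With the replicate block, an alternative chosen after seeing the data, the stage test called 0 regions (smallest permutation p 0.037, smallest adjusted p 0.385). After group means were taken off, same-numbered libraries correlated at -0.00578 to 0.145 (9 pairs, median 0.0383). Others correlated at -0.0923 to 0.0466 (24 pairs, median -0.01505). Same-numbered pairs had the higher median, and whether the numbers pair the libraries was not tested.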
